A study of Mus musculus with 6 samples.

Results

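CTCF binding at the 4 mouse Hox clusters was examined in regulatory T cells of the thymus by CUT&RUN, where a nuclease tethered through an antibody cuts out the DNA at bound CTCF for sequencing. There were 3 libraries labelled Cgas Knockout (Cgas_KO) and 3 labelled WT, with 1 peak list per library. Cgas encodes the cytosolic DNA sensor cGAS, and the stated purpose was to profile CTCF in both genotypes. Strain, age, the allele, the cells that carry the knockout and the number of animals are not stated in the labels, so each p-value reflects only how far these libraries vary, which may be technical. The peaks described are those overlapping 4 windows in mm39, each a cluster with its flanks: HoxA at chr6:52030000-52400000, HoxB at chr11:95980000-96370000, HoxC at chr15:102730000-103050000 and HoxD at chr2:74350000-74750000. They were chosen by position alone, and came to 152 of the 172581 peaks in the lists, in 75 of 94951 merged regions.

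Hox genes encode homeodomain transcription factors that give cells their position along the body axis, and their order along each cluster follows the order in which they act along that axis. CTCF is a zinc-finger protein that halts the extrusion of DNA loops by cohesin, and CTCF sites inside Hox clusters are known from other cell types to separate active from silenced genes. In the RefSeq gene order of GRCm38.p6, HoxA has 11 genes and ends with Hoxa13, beside Evx1, a homeobox factor. HoxB runs the other way, from Hoxb13 to Hoxb1 with 10 genes, between the tubulin glutamylase gene Ttll6 and Skap1, a T cell adaptor gene. HoxC runs from Hoxc13 to Hoxc4 with 9 genes, between Calcoco1 and the DNA repair gene Smug1. HoxD runs from Hoxd13 to Hoxd1 with 9 genes, between the homeobox gene Evx2 and the mitochondrial import gene Mtx2. That table is of another build than the lists, so it was used for gene order only. Peaks were therefore not assigned to genes, and are placed by their distance from the start of the window.

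Promoter sequences from RefSeq (GRCm38.p6) were matched for 22 of the 39 Hox genes, with 24 promoters of 300 bases. The letters AGGNGGC, part of the motif that CTCF is known to bind, were sought on both strands. They stood in 7 Hox promoters (29.2%), against 29.4% of all 32851 promoters of the table. Of the landmark genes at the cluster ends, Hoxa13 and Hoxd13 held a match, while Hoxb1, Hoxc4 and Hoxd1 held none in this window. Hoxb13 and Hoxc13 were not matched. The matches before the start sites of Hoxa13 and Hoxd13, which pattern the distal limb, are shown to give the letters themselves. Capitals mark the match, and coordinates are in GRCm38.p6. No peak was placed on these sequences.
Hoxa13, chr6:52260890-52260916, plus strand: gggtcgcgccAGGCGGCcgcccattgg
Hoxa13, chr6:52261052-52261078, plus strand: tcacccacggAGGAGGCgggggtgggt
Hoxd13, chr2:74668046-74668072, minus strand: tgggacggtcAGGGGGCcgtctcccgc
Hoxd13, chr2:74668064-74668090, minus strand: tcaggttgggAGGGGGCctgggacggt
Hoxd13, chr2:74668148-74668174, plus strand: gcgggcgggcAGGAGGCgggaggctcg

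The lists held 28052 to 31707 peaks in Cgas_KO and 27128 to 28926 in WT on chromosomes 1 to 19, X and Y. The height of a peak, its maximum signal, was a whole multiple of 1 step in each list, and is counted here in such steps. The labels do not say what 1 step represents. The median peak was 11 to 14 steps high. A step was worth 0.117 to 0.12 signal units in Cgas_KO and 0.19 to 0.212 in WT. Heights are therefore ranked within a list, as the percentile of the list's peaks, and these authors' values are otherwise only described. Read depth is unknown. Cgas_KO replicate 3 stood apart with the narrowest peaks, at a median of 2569 bp against 3219 to 3607 bp in the other lists.

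The Hox windows as a whole were richer in peaks than the rest of the genome, with the most at HoxB and HoxA. The Cgas_KO lists held 22, 28 and 31 Hox peaks and the WT lists 19, 24 and 28. Over the 6 libraries there were 17.1 ± 3.01 peaks per Mb in the windows (SD, n = 6) and 10.6 ± 0.621 per Mb elsewhere. The mean log2 ratio was 0.68 (SD 0.24, a 1.6-fold density), above 0 in 6 of 6 libraries (two-sided exact sign-flip test, p = 0.0312, the smallest this design allows). The libraries share 1 genome, so the test covers the spread between libraries and not that between places in the genome. Among 6954 bins of 370 kb, the mean length of the windows, the median bin held 0.766 peaks per 100 kb. The HoxB window exceeded 91.9% of the bins, HoxA 82.1%, HoxD 71% and HoxC 50.3%.

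In the full windows the clusters came in the order HoxB, HoxA, HoxD and HoxC. HoxB held 2.65 ± 0.386 peaks per 100 kb, HoxA 1.89 ± 0.837, HoxD 1.38 ± 0.542 and HoxC 0.781 ± 0.261 (SD, n = 6). HoxB lay above HoxC in 6 of 6 libraries, by 1.87 peaks per 100 kb (SD 0.499; exact sign-flip p = 0.0312, adjusted 0.0938 over the 6 pairs of clusters). HoxA against HoxC, HoxB against HoxD and HoxD against HoxC each had an adjusted p of 0.0938 (exact sign-flip, n = 6), in the same direction in 5 of 6 libraries. HoxA and HoxB, first in the order, did not differ beyond their spread (difference of -0.76 per 100 kb, SD 0.86, exact sign-flip p = 0.125, adjusted 0.15, n = 6). With each window narrowed by 50 kb on either side, HoxA lay above HoxB by 0.338 (exact sign-flip, adjusted p = 0.375). HoxB then lay above HoxD by 0.347 (exact sign-flip, adjusted p = 0.375), against 1.27 in the full windows. It lay above HoxC by 1.16 (exact sign-flip, adjusted p = 0.0625). The first place of HoxB thus depended on the outer 50 kb of the windows. HoxA and HoxD, the next neighbours in the full windows, did not differ beyond their spread either (0.517, SD 0.802, exact sign-flip p = 0.25, n = 6). No pair passed an adjusted p of 0.05, which this design can reach only when at least 4 pairs have the smallest p. Set against the rest of the genome 1 cluster at a time, a comparison added later, HoxB was 2.49-fold and HoxA 1.65-fold denser in 6 of 6 libraries (exact sign-flip p = 0.0312, adjusted 0.0625 over 4 clusters). At HoxA the log2 ratio was close to 0 in 2 of these, at 0.000221 in Cgas_KO replicate 1 and 0.0244 in WT replicate 2, and 0.427 to 1.39 in the others. At HoxB it was 1.04 to 1.58. HoxC was denser than the rest in 1 of 6 libraries and HoxD in 4 of 6.

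**Figure D1:**
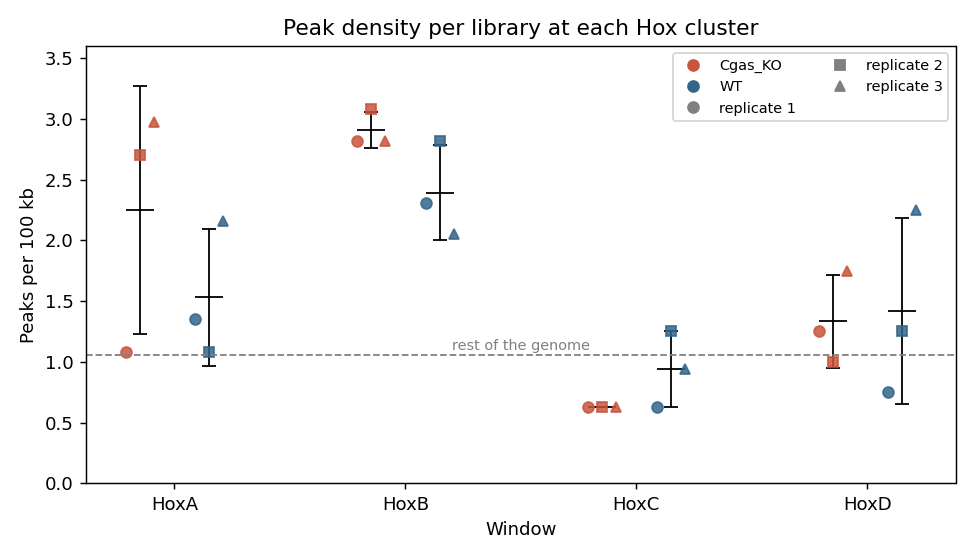
Peaks per 100 kb (y axis) at each Hox window (x axis) in the 3 Cgas_KO (red) and 3 WT (blue) libraries, with symbols for the replicate; the horizontal bar and error bar are mean and SD (n = 3), and the dashed line is the mean of the rest of the genome. HoxB lies above the dashed line in all 6 libraries, and at HoxC the 3 Cgas_KO libraries coincide below it.

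Cgas_KO and WT lists overlapped or touched in the number and spacing of Hox peaks, at exact permutation p-values of 0.3 to 1 (n = 3 per group). The 4 windows held 27 ± 4.58 peaks in Cgas_KO and 23.7 ± 4.51 in WT (SD, n = 3; exact permutation p = 0.5, adjusted 0.787 over 9 measures). With 3 libraries against 3 this exact test cannot go below p = 0.1. The difference of 3.33 peaks rested on single libraries, at 5.83 without Cgas_KO replicate 1, 5.5 without WT replicate 3, 1.33 without Cgas_KO replicate 3 and 1 without WT replicate 1. HoxA had 4, 10 and 11 peaks in Cgas_KO and 5, 4 and 8 in WT (exact permutation p = 0.4, n = 3). This difference of 2.67 peaks was 4.83 without Cgas_KO replicate 1 and 1.33 without Cgas_KO replicate 3. HoxB had 11, 12 and 11 in Cgas_KO and 9, 11 and 8 in WT (exact permutation p = 0.3, n = 3). Here the Cgas_KO lists lay at or above every WT list, with the groups touching at 11. HoxC had 2 peaks in each Cgas_KO list, and 2, 4 and 3 in WT (exact permutation p = 0.4, n = 3). HoxD had 5, 4 and 7 in Cgas_KO and 3, 5 and 9 in WT, which overlapped widely (exact permutation p = 1, n = 3). In no cluster were the groups apart, as they were in 6.67% of the 370 kb bins. With the windows widened by 50 kb on either side, HoxB had 14, 15 and 15 peaks in Cgas_KO and 12, 11 and 9 in WT, a difference of 4 with the groups apart (exact permutation p = 0.1, n = 3). Cgas_KO was likewise higher without overlap in 4.87% of bins of 490 kb, the length of that window. In the upper 50% of each list by total signal, the 4 windows held 14, 16 and 16 peaks in Cgas_KO and 10, 12 and 13 in WT, again apart (exact permutation p = 0.1, n = 3), as were 6.11% of stretches of 1480 kb, the summed length of the windows, in that direction.

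Peaks covered 5.48% ± 1.13 of the windows in Cgas_KO and 5.25% ± 1.26 in WT (SD, n = 3; exact permutation p = 0.7). The median distance between the maxima of neighbouring peaks was 27.8, 18.3 and 13.7 kb in Cgas_KO and 21.7, 21.8 and 28.4 kb in WT (exact permutation p = 0.4, n = 3). The difference of -4.03 kb was -7.95 without Cgas_KO replicate 1, -0.927 without Cgas_KO replicate 3 and -1.82 without WT replicate 3. Windows cap these distances, while the genome-wide medians were 38.3 to 43.6 kb. At HoxA the medians ran from 6.49 to 18.6 kb per list and at HoxB from 13.3 to 37.8 kb. The HoxA median was the smaller in all lists except Cgas_KO replicate 3, with 15.3 kb at HoxA and 13.3 kb at HoxB. The medians ran from 16.3 to 110 kb at HoxD and at HoxC from 10.3 to 254 kb, the last from 1 to 3 distances a list.

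**Figure D2:**
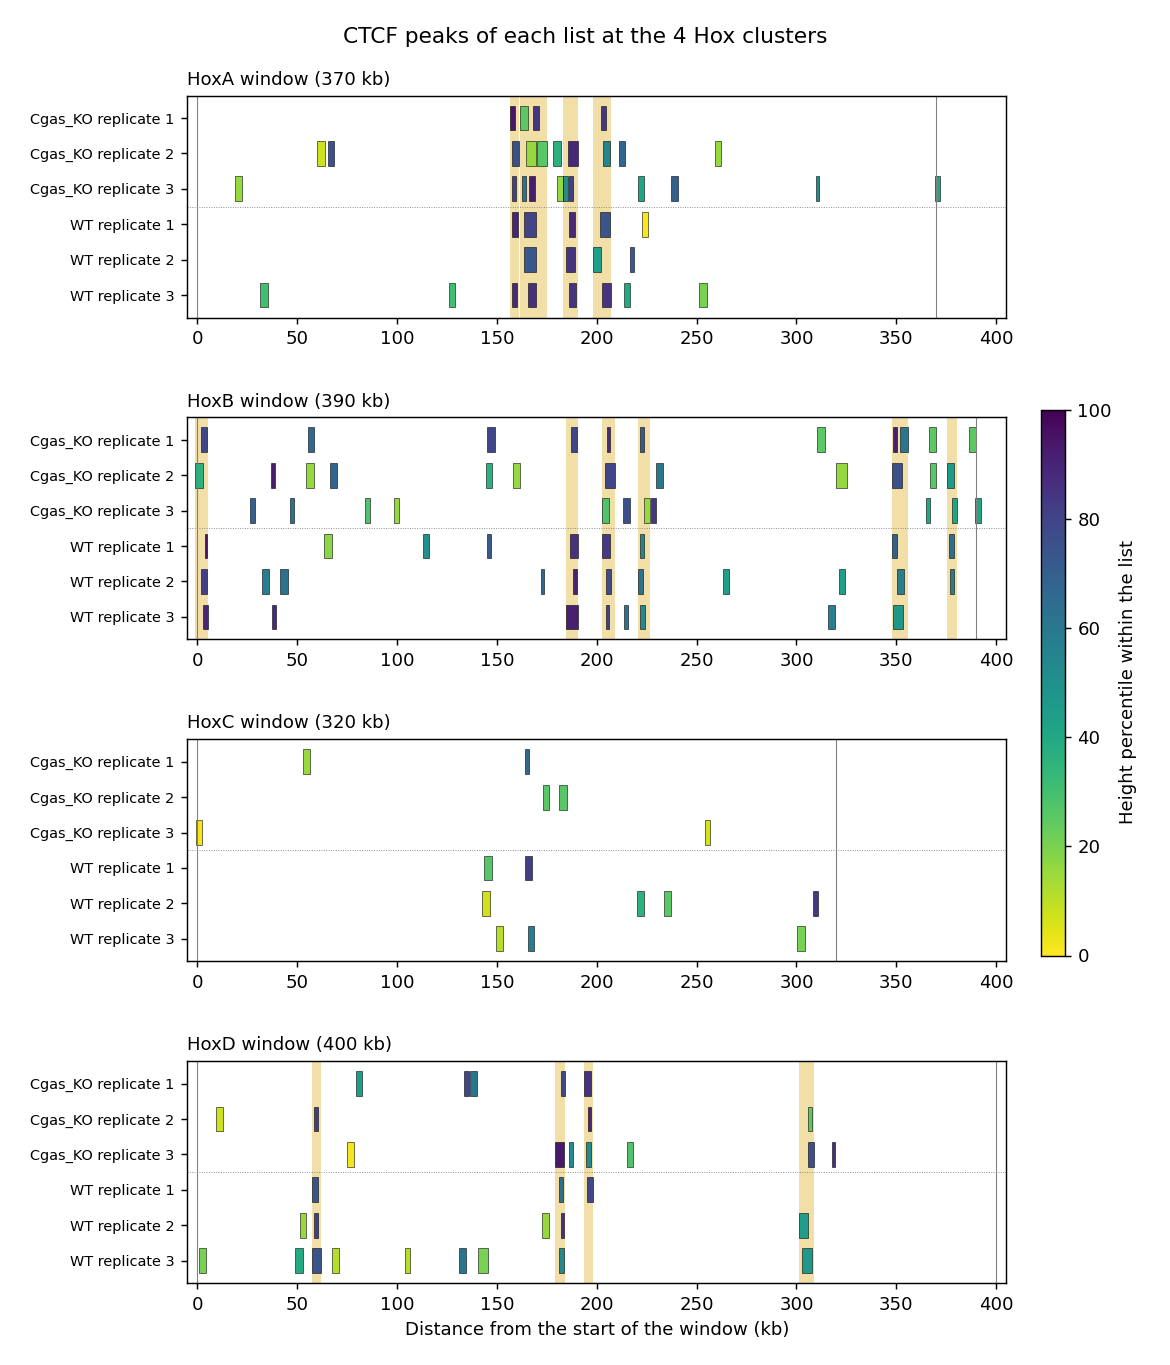
Peaks of the 3 Cgas_KO lists (upper rows) and the 3 WT lists (lower rows) at each Hox window, by distance from the start of the window (x axis, kb), coloured by height percentile within the list; yellow bands are regions called in 4 or more lists and grey lines the window bounds. At HoxA 4 bands stand together within the middle of the window, HoxB has 6 bands in 3 places, HoxD has 4, and HoxC has none.

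Of the 75 Hox regions 14 (18.7%) were called in 4 or more lists, against 11.6% of all 94951 regions. In all 6 lists there were 2 (2.67%), against 5.16% of all regions, so at that stricter count the windows lay below the genome. Without Cgas_KO replicate 3 there were 5 Hox regions in all remaining lists, without Cgas_KO replicate 2 there were 4, and without any other library 2 or 3. Leaving out a library eases the requirement, so such counts rise by construction. They are given without the share over the genome, and say nothing particular to the Hox windows. Regions of a single list numbered 46 (61.3%), against 69.9% of all regions. HoxB had 6 of the 14 recurrent regions, HoxA 4 and HoxD 4. HoxC had 0 of 12, and its best region was called in 3 lists. No test was made of these shares. Hox peaks in the recurrent regions had a median height percentile of 77.7, and Hox peaks of single lists one of 28.1. The same medians over the genome were 77.5 and 28.1.

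**Figure D3:**
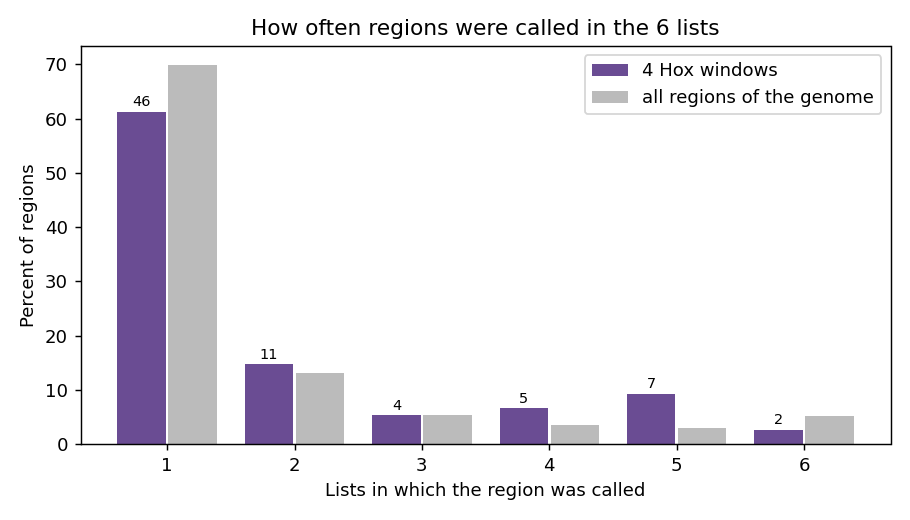
Percent of regions (y axis) by the number of lists in which they were called (x axis), for the Hox windows (purple, with the number of regions above each bar) and all regions of the genome (grey). The purple bars exceed the grey ones at 2, 4 and 5 lists and fall below them at 1, at 3 and at 6.

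Where a list had more than 1 peak in a region, the height and maximum given are those of the tallest. As a step differs in worth between lists, heights in steps describe each list and are not compared between genotypes. At HoxA the recurrent regions formed a run of 4 whose maxima spanned 45.6 kb, at steps of 10.3, 18.7 and 16.6 kb. The first, chr6:52186445-52190937, had its maximum at 159 kb and heights of 31, 18 and 15 steps in Cgas_KO replicates 1 to 3, and of 32 and 30 steps in WT replicates 1 and 3. Its maxima lay within 305 bp in these 5 lists, and WT replicate 2 did not call it. It was the tallest HoxA peak of Cgas_KO replicate 1 and of WT replicates 1 and 3. The second, chr6:52191784-52205187 at 169 kb, was called in all 6 lists. Its tallest peak was 21, 11 and 20 steps high in Cgas_KO, at percentiles 83.7, 25.8 and 91.8. In WT it was 24, 18 and 28 steps high, at percentiles 79.7, 72.8 and 86. Each Cgas_KO list had 2 separate peaks in this region and each WT list 1. The single peaks of WT replicates 1 and 2 were broad, at 6025 and 5765 bp. They covered the first Cgas_KO maxima, at 164.1 to 165.2 kb, as well as 169 kb, while that of WT replicate 3 began past the first maxima. The count of peaks is thus not a count of sites. In 30 of the 4896 regions of all lists (0.613%) every Cgas_KO list had more peaks than every WT list, and in 0.408% fewer. In Cgas_KO replicate 2 a peak covered 169 kb, where the tallest peak of the other 5 lists had its maximum, but the maxima of its 2 peaks stood at 165.2 and 172.8 kb. The third, chr6:52213269-52220553 at 188 kb, had 24 and 15 steps in Cgas_KO replicates 2 and 3 and 31, 25 and 27 in WT. The percentiles of these peaks were 88.7 and 80.2 in Cgas_KO and 88.2, 85.6 and 84.9 in WT. Their maxima agreed within 123 bp. Cgas_KO replicate 3 had a second, lower peak in this region, of 11 steps at percentile 52.7, with its maximum at 184.3 kb. The fourth, chr6:52228383-52237294 at 204 kb, had 21 and 14 steps in Cgas_KO replicates 1 and 2 and 21, 12 and 27 in WT. The maxima were spread over 4271 bp. The peak of WT replicate 2 had its maximum at 200 kb and did not cover those of the other lists, at 204.2 kb. Besides these 4 the HoxA window held 1 region of 3 lists, at 216 kb, and 12 regions of 1 or 2. The region at 216 kb was a chain of peaks with maxima spread over 5126 bp. Its peaks of Cgas_KO replicate 2 and WT replicate 2 did not overlap, so no position was shared by the 3 lists. One of the 12, at 182 kb and called in Cgas_KO replicates 2 and 3, lay between the second and the third region of the run.

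At HoxB the recurrent regions lay in 3 groups, at the start of the window, in its middle and near its end. The one at the start, chr11:95978953-95985407, reaches past the window and had 19 and 12 steps in Cgas_KO replicates 1 and 2, and 48, 22 and 32 in WT. Its maxima were spread over 2266 bp, with that of Cgas_KO replicate 2 at 2.3 kb and the others at 4.2 to 4.5 kb. The peak of Cgas_KO replicate 2 did not cover the maxima of the other lists. The 48 steps of WT replicate 1, at percentile 95.4, were the greatest height of any Hox peak. The middle group held 3 regions, with maxima 15.9 and 17.3 kb apart. Of these, chr11:96164724-96170503 at 190 kb had 19 steps in Cgas_KO replicate 1 and was not called in the other Cgas_KO lists. In WT it had 28, 30 and 35 steps and percentiles of 85.2 to 91.4, and was the tallest HoxB peak of WT replicates 2 and 3. Its maxima lay within 212 bp. The next, chr11:96182698-96189163 at 205 kb, was called in all 6 lists, at 23, 19 and 9 steps in Cgas_KO and 26, 20 and 24 in WT. The WT heights sat close together while Cgas_KO replicate 3 was far lower, at percentile 28.1. The last of the group, chr11:96200800-96206582 at 223 kb, had 17 and 8 steps in Cgas_KO replicates 1 and 3 and 15, 15 and 14 in WT. Its maxima were spread over 3003 bp. The peak of Cgas_KO replicate 3 had its maximum at 225.5 kb and did not cover the maxima of the other lists, so it may be another site. Near the end, chr11:96327826-96335728 at 350 kb had 26 and 18 steps in Cgas_KO replicates 1 and 2 and 19, 14 and 13 in WT. It was the tallest HoxB peak of Cgas_KO replicate 1. The percentiles were 91.1 and 75.6 in these 2 Cgas_KO lists and 46.9 to 69.6 in WT, and Cgas_KO replicate 3 did not call it. This is 1 of 14 regions, and the heights were not tested. The maxima were spread over 2960 bp. The WT replicate 2 peak had its maximum at 352.5 kb and did not cover those of the tallest peaks of the other lists. A second peak of Cgas_KO replicate 1 in this region, at 353.6 kb, stood at percentile 60.6. The sixth, chr11:96355526-96360159 at 378 kb, was of middle height, with 13 and 10 steps in Cgas_KO and 17 and 14 in WT and a median percentile of 52. Its maxima were spread over 1484 bp, with that of Cgas_KO replicate 3 at 379.1 kb and the others at 377.6 to 377.8 kb. The peak of Cgas_KO replicate 3 did not cover the maxima of the other lists.

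A single Hox region was called in the 3 Cgas_KO lists and in 0 WT lists, chr11:96344907-96349943 at 367 kb in the HoxB window. It was 11, 11 and 10 steps high, at percentiles of 25, 25.8 and 41, and its maxima were spread over 1658 bp. Over the genome 0.33% of regions showed this pattern, and 1 of 75 Hox regions did. It had no counterpart when the maxima had to lie within 200 bp. Calls in all WT lists and 0 Cgas_KO lists were seen in 0 Hox regions, and in 0.377% of all regions.

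At HoxD the 4 recurrent regions were a close pair and 2 outlying sites. The pair stood 13.8 kb apart. Its first member, chr2:74528996-74533909 at 183 kb, had 19 and 21 steps in Cgas_KO replicates 1 and 3 and 17, 25 and 14 in WT, with maxima within 377 bp. The second, chr2:74543453-74548029 at 196 kb, had 22, 25 and 11 steps in Cgas_KO and 23 in WT replicate 1, with maxima within 112 bp. It was not called in WT replicates 2 and 3, and so was the only recurrent Hox region called in all Cgas_KO lists and in a single WT list. The pair supplied the tallest HoxD peak of all lists except WT replicate 3. The site before it, chr2:74407384-74411765 at 59.3 kb, had 20 steps in Cgas_KO replicate 2 and 21, 22 and 20 in WT. It was called in all WT lists and 1 Cgas_KO list, as was the HoxB region at 190 kb, and at nearly equal heights where it was called. The site after it, chr2:74651416-74658660 at 307 kb, had 11 and 14 steps in Cgas_KO, at percentiles 25.8 and 75.9, and 12 and 13 in WT, at 44.5 and 46.9. Its maxima were spread over 3395 bp. The peak of WT replicate 2 had its maximum at 303.4 kb and did not cover those of the other lists, at 306.7 to 306.8 kb.

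At HoxC the peaks were few, mostly low and scattered. Its 15 peaks fell into 12 regions, 10 of them of 1 list. The median percentile of its peaks was 4.13 to 54.1 per list, and 29.3 ± 17.2 on average (SD, n = 6). HoxA averaged 66.1 ± 15.3, HoxB 59.6 ± 14.7 and HoxD 57.2 ± 15.9. The region called most often, chr15:102893926-102898610 at 166 kb, had 16 steps in Cgas_KO replicate 1 and 25 and 15 in WT replicates 1 and 3, with maxima within 400 bp. It was the tallest HoxC peak in each of these 3 lists. In Cgas_KO replicates 2 and 3 the tallest HoxC peaks reached only 11 and 7 steps, against 24 in WT replicate 2, and each was called in 1 list.

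Relative height was set against the whole genome next. The median Hox peak stood at percentile 75.2, 36.2 and 52.7 of its list in Cgas_KO and at 74.2, 60.4 and 53.1 in WT. The groups overlapped (54.7 ± 19.6 and 62.5 ± 10.7, SD, n = 3; exact permutation p = 0.6). Cgas_KO replicate 2 was the lowest, and without it the Cgas_KO mean lay 1.45 above the WT mean. Over all 6 libraries the mean was 58.6 ± 14.7 (SD, n = 6), not distinguishable from the list's own middle of 50 (exact sign-flip p = 0.25, 5 of 6 libraries above). In the highest 10% of their list stood 2 of 22, 1 of 28 and 2 of 31 Hox peaks in Cgas_KO. In WT these were 1 of 19, 1 of 24 and 1 of 28. The share was thus below 10% in every list, which was not tested.

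The regions called in all 6 lists were tested with limma on normal scores of their height ranks, fitted over all 4896 such regions of the genome. At a Benjamini-Hochberg adjusted p of 0.05 limma called 0% of them, and 461 (9.42%) had an unadjusted p under 0.05. The HoxA region at 169 kb differed by -0.28 normal scores, Cgas_KO minus WT (SE 0.60, limma adjusted p = 0.907). The HoxB region at 205 kb differed by -0.41 (SE 0.46, limma adjusted p = 0.804). Among the 4896 regions the HoxA one ranked at percentile 38.2, 1.7 and 59.7 in Cgas_KO and 32.4, 21.7 and 45.8 in WT. In Cgas_KO replicate 2 its tallest peak had its maximum at 172.8 kb and did not cover 169 kb. The rank of that list may thus be of another site. The lower peak that covered 169 kb had 10 steps, at percentile 15.8 of that list. The HoxB one ranked at 47.4, 29.1 and 3.04 in Cgas_KO and 38.4, 27.8 and 34.8 in WT. Both regions were thus of ordinary height or low among the regions of all lists. Either difference turned positive without 1 library, to 0.42 at HoxA without Cgas_KO replicate 2 and to 0.116 at HoxB without Cgas_KO replicate 3.

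**Figure D4:**
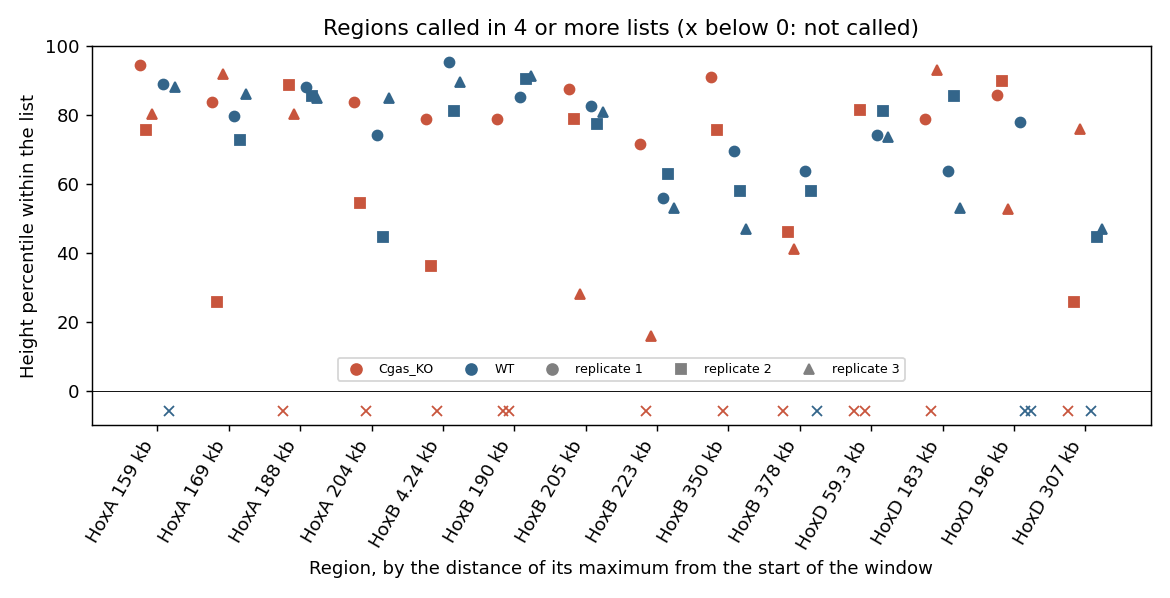
Height percentile within the list (y axis) of the 14 Hox regions called in 4 or more lists (x axis, by the distance of their maximum from the start of the window), for the 3 Cgas_KO (red) and 3 WT (blue) libraries; crosses below 0 mark lists without a call. Of the 17 crosses 12 are red, and HoxC has no region here.

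Fewer of the recurrent Hox regions were called in Cgas_KO lists than in WT lists, with no overlap, a comparison chosen after the values were seen. Of the 14 regions the Cgas_KO lists called 10, 11 and 9 and the WT lists 13, 12 and 12 (10 ± 1 and 12.3 ± 0.577, SD, n = 3; exact permutation p = 0.1, adjusted 0.778 over 10 measures). The regions were themselves chosen by calls in these lists. Those at 190 kb in HoxB and 59.3 kb in HoxD had 3 WT lists and 1 Cgas_KO list, and that at 196 kb in HoxD the reverse. This p, the smallest the test allows, is therefore no support for a difference between genotypes. All 3 Cgas_KO lists called 4 of the regions (28.6%), against 59.7% of the 11012 recurrent regions of the genome, and all 3 WT lists called 10 (71.4%), against 69%. Over the genome the lists leaned the same way, as Cgas_KO lists called 82.6% to 85.2% and WT lists 87.5% to 88.1% of 11012 recurrent regions. In stretches of 1480 kb calls were lower in Cgas_KO without overlap in 5.34% and higher in 0.843%. With maxima grouped within 200 bp, 11 Hox groups were recurrent, and Cgas_KO lists called 9, 7 and 6 and WT lists 10, 7 and 10, so that the groups overlapped. With regions of 5 or more lists they met at 8. The part of the differing signal steps and peak widths of the libraries in this was not tested.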

How the data were processed

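CTCF CUT&RUN peak lists of 3 Cgas_KO and 3 WT libraries of thymic regulatory T cells were used, grouped by the genotype and replicate number in the labels. Bowtie2 and SEACR 1.3 were used, per the submitters' processing notes, which name mm10 and mm39. Scaffold names in the lists are those of mm39. Each deposited peak has 2 signal values from the authors, its total and its maximum, and peaks were called library by library. How the signal was scaled, the threshold and any control library are not stated in the labels. Without a known depth, no counting interval was given.

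Peaks on chromosomes 1 to 19, X and Y that overlapped a window by 1 bp were taken, and overlapping peaks from any list (1 bp or more) formed a region. Max signal was a whole multiple of the step within 0.01 step for 100% of peaks under 200 steps. Library values of the genotypes went into two-sided exact permutation tests (20 assignments), windows and clusters with exact sign-flip tests over libraries, and regions of all lists with limma 3.58.1 (R 4.3.3), each with Benjamini-Hochberg adjustment. The limma step was run on simulated data with normal noise of a common spread. These lack the steps of the real heights, so the run checks the working of the code only. The remaining work was done in Python 3.11.15 with pandas 2.3.3. The length of a chromosome was taken to the last peak of any list. Regions named were those in all lists, those of 1 genotype only and the tallest peak of each window and list. Regions in 4 or more lists, the promoter stretches shown, the HoxA region at 182 kb, the number of peaks per list in the region at 169 kb and the HoxC region of 3 lists were named after their values were seen. The windows and lists were chosen with earlier results of these data known. As alternatives, every list was cut to the 27128 tallest peaks or to its upper 50% by total signal, windows were narrowed or widened by 50 kb on either side, regions were defined otherwise, the replicate number was a block, and each library was left out in turn. No mm39 genome or annotation was used, so the knockout was not checked at Cgas. In the ranked heights of regions of all lists, same-numbered libraries did not deviate together (correlations of deviations -0.0129, -0.0169 and -0.0148).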

Additional observations from a re-analysis of the deposited data

How the results depend on the processing

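None of the differences between genotypes passed a test, and with 3 libraries against 3 an exact permutation test cannot pass 0.05, so only directions are compared. Of 226 alternatives over 23 results, 189 gave the same direction and side of the threshold or a like count. In the exact permutation tests, and for pairs of clusters with a library left out, the side of the threshold could not change. The count is therefore no measure of how firm the results are. With windows widened by 50 kb the HoxC difference was 0 peaks, and with windows narrowed by 50 kb the difference in spacing was 3.17 kb and that of HoxA minus HoxB 0.338 peaks per 100 kb. With percentiles of total signal the difference in the median Hox percentile was 5.34, and the limma differences were 0.844 at HoxA and 0.329 at HoxB. Leaving out each library gave Cgas_KO minus WT differences of 1 to 5.83 Hox peaks, 1.33 to 4.83 at HoxA, 1.33 to 2.83 at HoxB and -1.5 to -0.5 at HoxC, -7.95 to -0.927 kb in spacing, -1.67 to 1.33 peaks at HoxD, -0.383 to 0.895 percentage points of covered length, -18.1 to 1.45 in the median percentile, -0.0396 to 0.246 in the log2 density ratio between genotypes, and limma differences of -0.764 to 0.42 at HoxA and -0.789 to 0.116 at HoxB. The log2 density over the rest of the genome was 0.629 to 0.743, above 0 each time, at an exact sign-flip p of 0.0625, the smallest that 5 libraries allow.

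Hox regions called in all lists numbered 0 where 50% coverage of a region was required, 1 by midpoints within 200 bp, 1 in the top 50% by total signal, and 2 to 5 without a library. Regions of Cgas_KO only numbered 0 under each of those 3 definitions and 1 to 2 without a library, and regions of WT only 1 at 50% coverage and 0 to 1 without a library. Leaving out a library eases the requirement, so these counts rise by construction. For the others the cause was not tested. The limma fit over all regions called 1 region on the log2 scale, which lies outside the Hox windows, and 0 in the other alternatives. With the replicate number as a block, limma called 0 regions, with 422 at an unadjusted p under 0.05, and the Hox peaks differed by 3.33 (exact sign-flip p = 0.25, the smallest for 3 pairs). Whether same-numbered libraries were prepared together is not stated in the labels. Ranks within a list cannot show a shift of a whole library. The recurrent Hox regions called differed by -2.83 to -1.83 without a library, alternatives added after seeing the data.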
